A study of Mus musculus with 24 samples.

Results

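Rad51b and 7 further genes of homologous recombination (Rad51ap1, Rad51c, Rad54l, Xrcc2, Xrcc3, Brca1 and Brca2) were followed in mouse liver. These 8 genes, out of 34844 gene names on the array, are measured by 10 of its 55681 gene probes, and each of the 10 is shown; Rad51b is written Rad51l1 in the array files. They were chosen by the higher signal of Rad51b on the deficient diet in all strains, so its diet values are given as a description without a test. Liver RNA of male mice was hybridised to 24 single-colour expression arrays, 4 in each of 6 groups. The groups are A/J, C3H/HeJ and WSB/EiJ mice on the deficient diet and the same 3 inbred strains on the control diet. The deficient diet contained 0.17% methionine and no choline or folic acid. In the control diet methionine was 0.4%, choline was supplied as 0.3% of its bitartrate, and folic acid stood at 2 mg/kg. Both diets were iron-supplemented and made of defined amino acids, feeding began at 8 weeks of age and lasted 12 weeks, and all mice were 20 weeks old at collection. The labels do not say whether each array is a separate animal, so every p-value measures the spread between these samples. Whole liver was used, so a lower share of a cell type and less RNA per cell cannot be told apart.

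Homologous recombination repairs broken DNA by copying an intact sister chromatid. A protein filament forms on single-stranded DNA with the help of Brca2 and of the related proteins Rad51b, Rad51c, Rad51d, Xrcc2 and Xrcc3, while Rad54l and Rad51ap1 act as the filament invades the intact copy. Brca1 acts earlier, at the resection of the break and in bringing in Brca2. The pathway serves cells that replicate their DNA, and most hepatocytes of an adult liver are out of the cell cycle.

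The probes that carry the results are printed as the array files give them, because the 2 Rad51b probes and the Rad51c probe have to be told apart by sequence. The letters are lower case, and capitals mark an unbroken run of TG pairs. The positions are those of the mouse build mm9 in the array files.
Rad51b, probe A_51_P269792, chr12:80915000-80915059, plus strand: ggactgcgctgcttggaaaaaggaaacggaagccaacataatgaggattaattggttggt
Rad51b, probe A_55_P2120219, chr12:80609478-80609537, plus strand: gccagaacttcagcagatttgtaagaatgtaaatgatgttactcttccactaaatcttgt
Rad51ap1, probe A_55_P1991688, chr6:126873482-126873541, minus strand: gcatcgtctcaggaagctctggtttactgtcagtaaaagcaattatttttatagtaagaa
Rad54l, probe A_55_P2086659, chr4:115769618-115769677, minus strand: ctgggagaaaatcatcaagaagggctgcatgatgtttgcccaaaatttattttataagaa
Brca2, probe A_51_P451106, chr5:151372225-151372284, plus strand: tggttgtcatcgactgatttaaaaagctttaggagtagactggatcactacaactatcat
Rad51c, probe A_55_P1955891, chr11:87190997-87191056, minus strand: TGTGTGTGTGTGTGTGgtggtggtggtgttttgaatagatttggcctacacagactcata
Every member probe is 60 bases long. The Rad51b probes lie 306 kb apart on chromosome 12, so they report different stretches of that locus. Within the Rad51c probe, 16 of the 60 letters form a run of 8 TG pairs at its 5′ end. No other member probe holds a run of 6 or more TG pairs.

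Promoters of the members were searched because several of these genes moved together. RefSeq (GRCm38.p6) gave 10 entries for 7 of the 8 genes, each from 250 bases before to 50 bases after an annotated start. Motifs of E2F, a factor family of S phase genes, and of the CHR element of mitotic genes were sought on both strands, with overlapping matches each counted. The E2F motifs first planned had 8 letters and were TTTCCCGC with its variants TTTCGCGC, then TTTGCCGC, then TTTGGCGC. After the promoters had been seen these were shortened to 7 letters by dropping the opening T, so both counts are given. The CHR motif was TTTGAA. Capitals mark matches of the 7-letter set.
Rad51ap1, chr6:126939538-126939837, minus strand: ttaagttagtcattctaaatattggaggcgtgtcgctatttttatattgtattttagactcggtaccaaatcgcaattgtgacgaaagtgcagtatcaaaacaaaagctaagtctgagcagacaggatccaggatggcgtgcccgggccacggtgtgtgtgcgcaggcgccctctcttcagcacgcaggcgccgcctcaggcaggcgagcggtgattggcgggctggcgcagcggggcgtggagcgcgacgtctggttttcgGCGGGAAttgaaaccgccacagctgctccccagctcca
Brca2, chr5:150522371-150522670, plus strand: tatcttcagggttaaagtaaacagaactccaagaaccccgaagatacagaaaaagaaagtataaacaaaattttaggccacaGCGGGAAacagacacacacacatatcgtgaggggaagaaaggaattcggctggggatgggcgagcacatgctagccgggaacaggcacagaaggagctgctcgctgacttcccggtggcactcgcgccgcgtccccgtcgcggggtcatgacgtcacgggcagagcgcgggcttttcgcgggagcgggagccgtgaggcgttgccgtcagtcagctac
An 8-letter E2F match was present in 3 of the 10 entries, in Rad51c and Brca2, against 2.26% of 32851 promoter entries of the mouse. A 7-letter match was present in 5 of the 10, in Rad51ap1, Rad51c, Brca1 and Brca2, against 9.57% of all entries. In Rad51ap1 the 7-letter match began at position 12 after the start, and in Brca2 at position -168. A CHR match was present in 1 of the 10 entries, the second Rad51b start, against 17.9% of all entries. The entries of Rad54l and Xrcc3 held neither set of letters. A match is a description of the letters in the window and no more.

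Levels are given as scaled signal, in which the 75th percentile of each array is 100, and levels of different probes are not compared. Changes are log2 fold changes of the deficient over the control diet with the standard error of limma, and p-values are limma's moderated test with Benjamini-Hochberg adjustment over 28161 probes. Testing required a probe to be flagged as well above background in every array of 1 or more groups, which 7 of the 10 member probes met. Those left out were the second Rad51b probe, 1 of the 2 Xrcc2 probes and the Brca1 probe. A score over 9672 probes that the diet moved the same way in both C3H/HeJ and WSB/EiJ was -0.12 log2 units in A/J deficient 4 and -0.09 in A/J control 4, so the diets lay together in this pair of arrays. The other A/J arrays stood between 0.07 and 0.33 on the deficient diet and between -0.39 and -0.25 on the control diet. Both arrays were therefore also left out for the A/J changes of Rad51b, Rad51ap1, Rad54l, Brca2 and the Rad51c probe. The A/J counts of members and of other homologous recombination genes are likewise given with and without them. Other A/J values, among them those of Xrcc2, Xrcc3, Rmi2, the neighbours of Rad51b and the marker lists, include both arrays. C3H/HeJ deficient 4 stood at 0.06, below the 0.36 to 0.70 of its group. Each of the 3 slides of 8 arrays held all 6 groups and was scanned once.

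Among the 6 tested probes of the 7 other genes, 1 rose on the deficient diet in A/J, where 7.31% of all probes tested were called in either direction. By direction, 3.99% rose and 3.32% fell. In C3H/HeJ 3 member probes rose and 1 fell, with 39.7% of all probes called, and in WSB/EiJ 3 rose and 1 fell, with 69.3% of all probes called. One of the 3 in each strain is Rad54l, which was tested only through the deficient groups of C3H/HeJ and WSB/EiJ where it is high, and the probe that fell is that of Rad51c, with its TG run. Without both probes 2 of 4 rose, Rad51ap1 and Brca2, and 0 fell in C3H/HeJ and in WSB/EiJ. Without A/J arrays 4, no member probe was called in A/J, while calls over all probes were 3384 in place of 2059; they were 913 without A/J deficient 3. These shares stand on a background that was high in C3H/HeJ and WSB/EiJ, and most calls there ran the other way: 14.2% of all probes rose and 25.5% fell in C3H/HeJ, and 20.2% rose and 49.1% fell in WSB/EiJ. Deficient and control arrays did not overlap, with the deficient ones higher or lower, for 6.58% and 8.55% of all probes in A/J, 11.8% and 18.5% in C3H/HeJ and 19% and 45.6% in WSB/EiJ. Under scaling on spike-in probes the split of all calls turned, to 11236 higher and 1147 lower in C3H/HeJ and 16866 higher and 2227 lower in WSB/EiJ.

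Rad51b, the partner of Rad51c in the paralog complexes, had a scaled signal of 666, 679, 773 and 394 in A/J mice given the deficient diet, against 42.5, 26.4, 40.0 and 45.3 on the control diet. C3H/HeJ livers had 820, 807, 854 and 394 on the deficient diet, against 10.9, 11, 13.7 and 12.9 on the control diet. In WSB/EiJ the values were 832, 1080, 788 and 1340 on the deficient diet, against 9.19, 16.3, 11.9 and 28.4 on the control diet. All 12 deficient arrays therefore lay above all 12 control arrays, and the lowest deficient values, 394 in A/J and in C3H/HeJ, belonged to the arrays numbered 4. The log2 fold change was 4.01 ± 0.31 in A/J (16.1-fold), 5.83 ± 0.31 in C3H/HeJ (56.9-fold) and 6.04 ± 0.31 in WSB/EiJ (65.8-fold). Without A/J arrays 4 it was 4.31 in A/J. Within the 3 slides it ranged from 3.69 to 4.27 in A/J, from 5.50 to 6.19 in C3H/HeJ and from 5.50 to 7.03 in WSB/EiJ.

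Rad51b levels are set side by side between strains as a description, with no test, because the same arrays enter the diet change by which it was chosen. Deficient livers averaged 628 ± 163 in A/J and 719 ± 218 in C3H/HeJ (SD, n = 4 each) and ran from 788 to 1340 in WSB/EiJ, so the C3H/HeJ range overlapped both others. With the control diet C3H/HeJ averaged 12.1 ± 1.37 and WSB/EiJ 16.4 ± 8.48, against 38.5 ± 8.41 in A/J (SD, n = 4 each). There the WSB/EiJ range overlapped both others, and C3H/HeJ lay below A/J on every array. On the log2 scale C3H/HeJ minus A/J was -1.65 ± 0.31 (SE) and WSB/EiJ minus A/J -1.33 ± 0.31, or -0.53 under normexp background correction with quantile normalization. WSB/EiJ minus C3H/HeJ was 0.31 ± 0.31. The diet change was larger than in A/J by 1.82 ± 0.43 in C3H/HeJ and by 2.03 ± 0.43 in WSB/EiJ, and the WSB/EiJ change minus that of C3H/HeJ was 0.21 ± 0.43, all as descriptions. Of the 4 C3H/HeJ control arrays, 3 measured Rad51b well above background, so the dim end of that fold is close to the floor of the array. Over all alternative settings the change stayed between 3.30 and 4.37 in A/J, 4.23 and 6.31 in C3H/HeJ and 4.67 and 6.95 in WSB/EiJ.

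The second Rad51b probe gave another picture. It was well above background on 1 of 24 arrays, A/J deficient 3, and its scaled signal ran from 0.634 to 4.63 over all arrays. Its group means were 2.30 in A/J, 2.28 in C3H/HeJ and 0.872 in WSB/EiJ on the deficient diet, against 1.60, 1.96 and 1.54 in the same strains on the control diet. The change of Rad51b was therefore read by the probe at the higher coordinate alone, and the probe 306 kb away gave no level above background in most arrays.

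**Figure D1:**
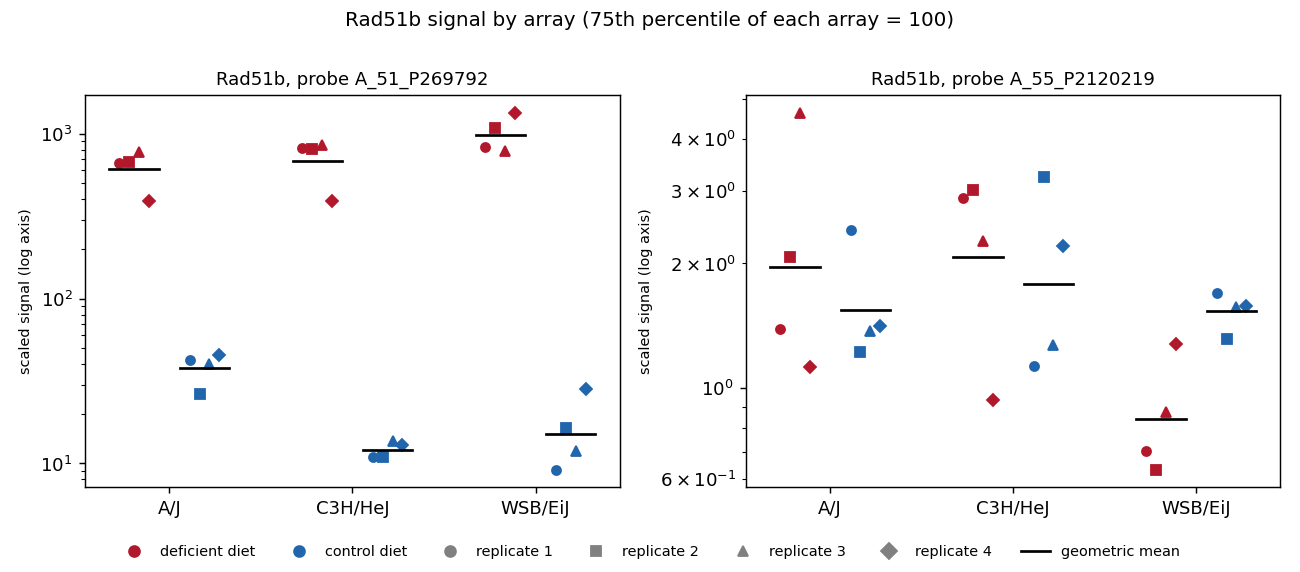
Scaled signal of both Rad51b probes on each of the 24 arrays (log axis, 75th percentile of each array = 100), with strains along the horizontal axis, deficient diet in red left of control diet in blue, symbols for the replicate number and bars at the geometric mean. For probe A_51_P269792 all deficient arrays (394 to 1340) lie above all control arrays (9.19 to 45.3), while probe A_55_P2120219 stays between 0.634 and 4.63 in every group.

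The genes on either side of the Rad51b probes were set beside Rad51b, with distances taken from the nearer Rad51b probe and not from the ends of the gene. On the side of lower coordinates the nearest tested genes with a current name were Zfyve26 (276 kb away), Rdh12 (286 kb), a retinol dehydrogenase, and Rdh11 (333 kb), another. On the other side they were 9430078K24Rik (103 kb), Zfp36l1 (294 kb), an mRNA decay factor, and Actn1 (354 kb), an actinin. In A/J none of the 6 was called, with changes from -0.57 to 0.03. In C3H/HeJ Rdh11 fell by 0.72 ± 0.25 (adjusted p = 0.0298) and 9430078K24Rik by 0.35 ± 0.13 (adjusted p = 0.0402). In WSB/EiJ Actn1 rose by 0.94 ± 0.11 (adjusted p = 5.88e-07). Zfp36l1 fell there by 0.76 ± 0.16 (adjusted p = 0.00024), 9430078K24Rik by 0.75 ± 0.13 (adjusted p = 5.52e-05) and Rdh12 by 1.06 ± 0.38 (adjusted p = 0.0187). Among the 6 neighbours the highest change in any strain was 0.94 on the log2 scale, against 4.01 to 6.04 for Rad51b. Rad51b was chosen by its rise, so its higher values here are a description.

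**Figure D2:**
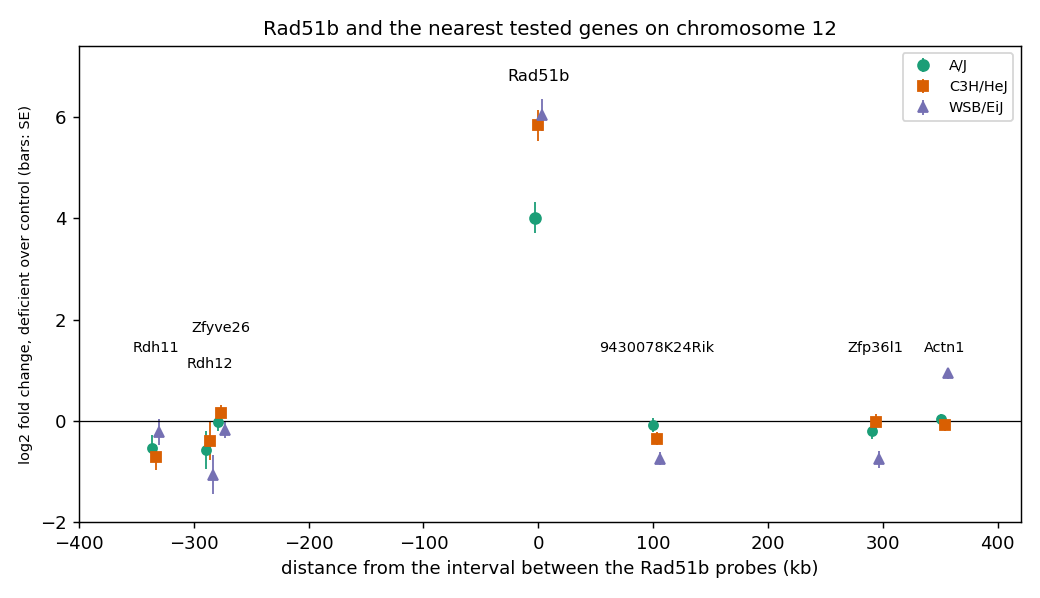
Log2 fold change of the deficient over the control diet (bars: standard error) for Rad51b and the 3 nearest tested genes on each side, against distance in kb from the stretch between the Rad51b probes, with a symbol and colour per strain. Rad51b stands at 4.01 in A/J, 5.83 in C3H/HeJ and 6.04 in WSB/EiJ, and the 6 neighbours lie between -1.06 and 0.94.

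Rad51ap1, which stimulates strand invasion, changed with the diet in 2 strains and by different amounts. WSB/EiJ livers had 205, 136, 147 and 143 on the deficient diet, against 8.61, 13.1, 8.19 and 9.54 on the control diet. C3H/HeJ livers had 47.7, 55.2, 63.6 and 37.3 on the deficient diet, against 8.22, 11.7, 9.65 and 12.4 on the control diet. The groups did not overlap in either strain, whereas in A/J the values of 30.1, 18.4, 25.4 and 13.1 on the deficient diet lay among the 22.2, 14.8, 10.2 and 27.7 of the control diet. Rad51ap1 rose by 4.01 ± 0.28 in WSB/EiJ (16.1-fold, adjusted p = 4.85e-10) and by 2.27 ± 0.28 in C3H/HeJ (4.83-fold, adjusted p = 6.04e-06), and stood at 0.25 ± 0.28 in A/J (adjusted p = 0.638; 0.69 without A/J arrays 4, adjusted p = 0.102). Under normexp correction the rise was 2.32 in WSB/EiJ and 1.0 in C3H/HeJ, and with spike-in scaling 4.92 and 2.75.

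The diet effect on Rad51ap1 differed in all 3 pairs of strains. It was larger in C3H/HeJ than in A/J by 2.02 ± 0.40 (adjusted p = 0.0101; 1.58 without A/J arrays 4, adjusted p = 0.0411), in WSB/EiJ than in A/J by 3.76 ± 0.40 (adjusted p = 1.48e-06; 3.31 without them) and in WSB/EiJ than in C3H/HeJ by 1.73 ± 0.40 (adjusted p = 0.00473). Within slides the rise ran from 3.49 to 4.53 in WSB/EiJ and from 1.97 to 2.42 in C3H/HeJ. In control livers WSB/EiJ minus A/J was -0.85 ± 0.28 (adjusted p = 0.0187). That call was lost without A/J control 4 (-0.63, adjusted p = 0.0839), without A/J control 1 (-0.73, adjusted p = 0.0614) and without WSB/EiJ control 3 (-0.77, adjusted p = 0.0549). It was also lost under normexp correction (-0.24, adjusted p = 0.159). Under that correction the differences of diet effects were 0.85 for C3H/HeJ minus A/J, 2.17 for WSB/EiJ minus A/J and 1.32 for WSB/EiJ minus C3H/HeJ.

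Rad54l, the motor protein that moves along DNA during strand invasion, had signals near background on the control diet. WSB/EiJ livers had 64.4, 49.0, 45.8 and 46.9 on the deficient diet, against 3.98, 6.99, 8.89 and 4.44 on the control diet. In C3H/HeJ the values were 26.2, 25.5, 30.3 and 13.6 on the deficient diet, against 4.34, 2.35, 7.47 and 2.29 on the control diet. Deficient and control groups were apart in both strains, with 2 and 1 of 4 control arrays well above background in WSB/EiJ and in C3H/HeJ. In A/J the values were 12.7, 7.89, 13 and 4.53 on the deficient diet, against 4.79, 5.27, 5.31 and 20.2 on the control diet, and the highest and lowest of these 8 arrays were those numbered 4. The change was 3.15 ± 0.45 in WSB/EiJ (adjusted p = 4.62e-06), 2.66 ± 0.45 in C3H/HeJ (adjusted p = 0.00017) and 0.28 ± 0.45 in A/J (adjusted p = 0.755; 1.09 without A/J arrays 4, adjusted p = 0.0762). Under normexp background correction it was 1.04 in WSB/EiJ and 0.60 in C3H/HeJ. The probe entered the test only through the deficient groups of C3H/HeJ and WSB/EiJ, where it is high, so its call adds no support. WSB/EiJ exceeded A/J in diet effect by 2.87 ± 0.64 (adjusted p = 0.00159; 2.06 without A/J arrays 4, adjusted p = 0.00655; 1.02 under normexp correction), and C3H/HeJ by 2.38 ± 0.64 (adjusted p = 0.0577). The C3H/HeJ minus A/J difference passed the threshold without C3H/HeJ deficient 4 (2.63, adjusted p = 0.0208), without C3H/HeJ control 3 (2.72, adjusted p = 0.0307) and without A/J deficient 3 (2.57, adjusted p = 0.0477).

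Brca2, which loads the repair filament onto DNA, was measured above background on each of the 24 arrays and had smaller changes. WSB/EiJ livers had 64.0, 51.4, 60.4 and 53.8 on the deficient diet, against 26.9, 31.2, 25.9 and 29.5 on the control diet. C3H/HeJ livers had 75.2, 88.6, 111 and 78.8 on the deficient diet, against 59.2, 52.8, 57.7 and 56.9 on the control diet. A/J had 41.8, 45.7, 45.4 and 54.3 on the deficient diet, against 35.4, 34.6, 37.3 and 21.3 on the control diet. The groups did not overlap in any strain. Brca2 rose by 1.01 ± 0.15 in WSB/EiJ (adjusted p = 6.6e-06), by 0.63 ± 0.15 in C3H/HeJ (adjusted p = 0.00294) and by 0.57 ± 0.15 in A/J (adjusted p = 0.0247). The A/J call was lost when some single arrays were left out. Without control 4, the lowest, the change was 0.38 (adjusted p = 0.0624), and without deficient 4 it was 0.50 (adjusted p = 0.0543). Without deficient 3 the change was no smaller, at 0.58 (adjusted p = 0.0612), but calls over all probes were 913 in place of 2059. Without both arrays 4 the change was 0.31 (adjusted p = 0.117). The difference of diet effects for WSB/EiJ minus A/J was 0.44 ± 0.21 (adjusted p = 0.0947), and 0.71 without A/J arrays 4 (adjusted p = 0.00433). Control livers of C3H/HeJ had more Brca2 signal than those of A/J, by 0.85 ± 0.15 (adjusted p = 0.000292), and WSB/EiJ minus C3H/HeJ was -1.0 ± 0.15 (adjusted p = 1.96e-05).

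Brca1, the scaffold that acts with Bard1 at broken ends, was not well above background on any of the 24 arrays. Its probe is aligned to chr11:101359283-101363319, a stretch of 4037 bases for 60 letters, so its letters are not contiguous in the genome. The signal ran from 0.811 to 3.22 over all arrays, and no comparison was made.

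**Figure D3:**
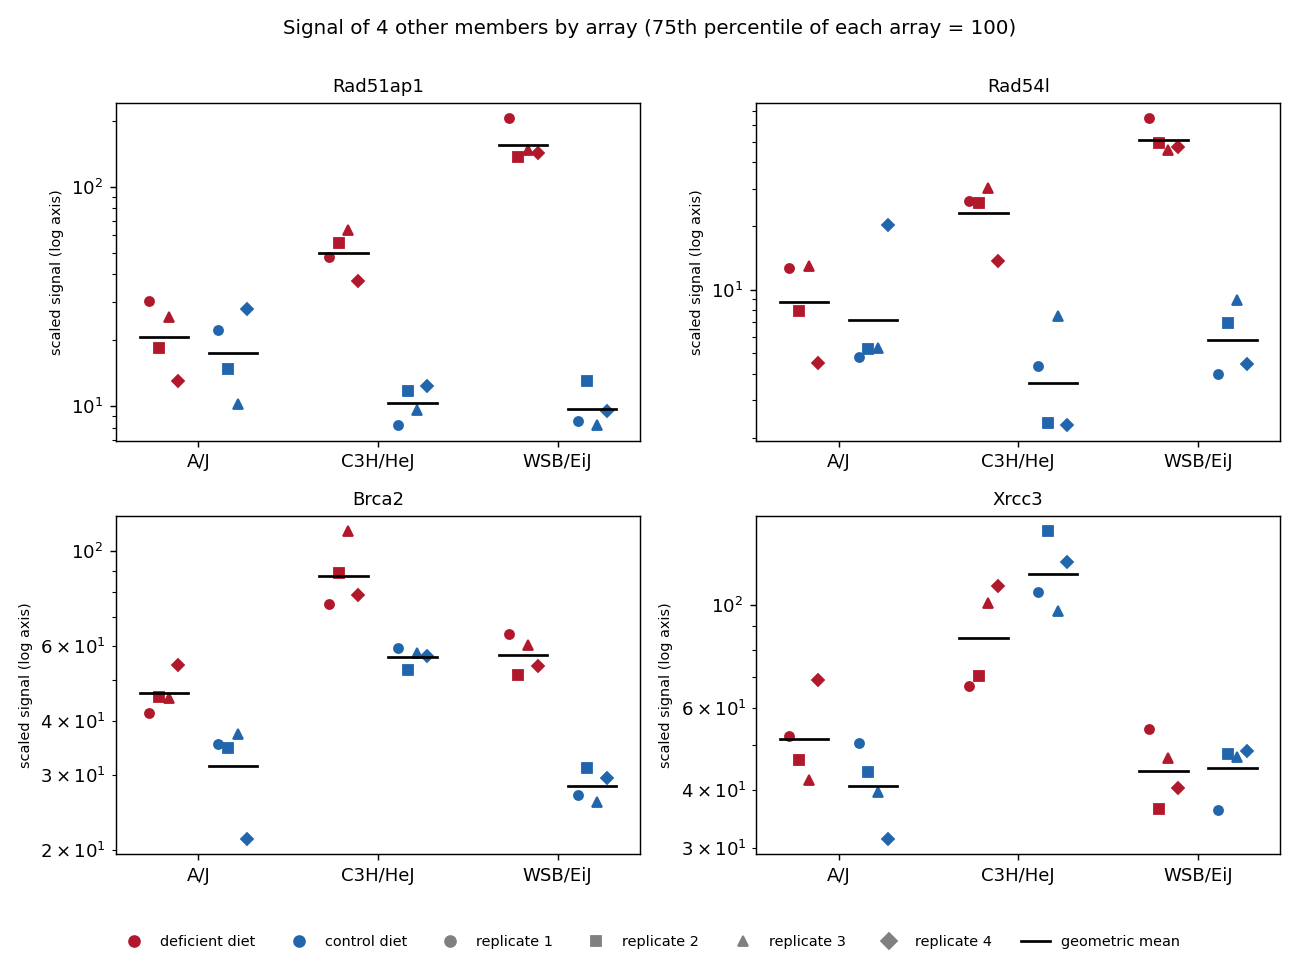
Scaled signal of Rad51ap1, Rad54l, Brca2 and Xrcc3 on each array (log axes, 75th percentile of each array = 100), drawn by strain with the deficient diet in red left of the control diet in blue, symbols for the replicate number and bars at the geometric mean. In WSB/EiJ and C3H/HeJ the deficient and control arrays are apart for Rad51ap1, Rad54l and Brca2, while those of Xrcc3 overlap in both strains.

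The Rad51c probe, with its run of 8 TG pairs, fell on the deficient diet in 2 strains. WSB/EiJ livers had 5280, 8880, 8980 and 6370 on the deficient diet, against 37800, 31400, 22700 and 35900 on the control diet. C3H/HeJ livers had 3010, 2720, 3620 and 7630 on the deficient diet, against 7450, 12300, 8560 and 7200 on the control diet. In A/J the values were 5310, 8200, 5190 and 9960 on the deficient diet, against 7930, 7870, 6220 and 8530 on the control diet. WSB/EiJ on the control diet stood above every other array, whereas the other 5 groups overlapped in part. The change was -2.12 ± 0.29 in WSB/EiJ (adjusted p = 2.11e-06), -1.16 ± 0.29 in C3H/HeJ (adjusted p = 0.00355; -0.45 to -2.18 within slides) and -0.14 ± 0.29 in A/J (adjusted p = 0.809; -0.26 without A/J arrays 4). C3H/HeJ minus A/J in diet effect was -1.02 ± 0.41 (adjusted p = 0.196; -1.35 without C3H/HeJ deficient 4, adjusted p = 0.0227). WSB/EiJ minus A/J was -1.98 ± 0.41 (adjusted p = 0.000794; -1.86 without A/J arrays 4, adjusted p = 0.00376), and on the control diet WSB/EiJ was higher than A/J by 2.05 ± 0.29 (adjusted p = 7.29e-06) and than C3H/HeJ by 1.85 ± 0.29 (adjusted p = 2.63e-05).

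The TG run of the Rad51c probe was then set beside other probes that hold one, a comparison chosen after the values were seen. On the array 114 other gene probes (0.205%) held 6 or more TG pairs, and 113 of them passed the background filter (99.1%, against 50.6% of all probes). These 113 probes carry 113 different gene names. Their median change was -2.26 in WSB/EiJ (quartiles -2.44 and -1.95), -1.31 in C3H/HeJ (quartiles -1.37 and -1.20) and -0.19 in A/J (quartiles -0.22 and -0.15), within 0.15 of the Rad51c probe in each strain. Of the 113, all fell in WSB/EiJ and 109 fell in C3H/HeJ. Between control livers their median was 2.10 higher in WSB/EiJ than in A/J. Over the 24 arrays the Rad51c probe and the median of the 113 had a Pearson r of 0.997 on the log2 scale, where arrays share strain and diet; for the other tested member probes r lay between -0.67 and 0.16. By length of the run, the median change in WSB/EiJ was -0.45 for 110 probes with 4 TG pairs, -1.25 for 49 with 5, -2.15 for 27 with 6 and -2.18 for 55 with 9 or more. The values above are those of the probe, and what part of them comes from Rad51c transcripts was not tested.

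**Figure D4:**
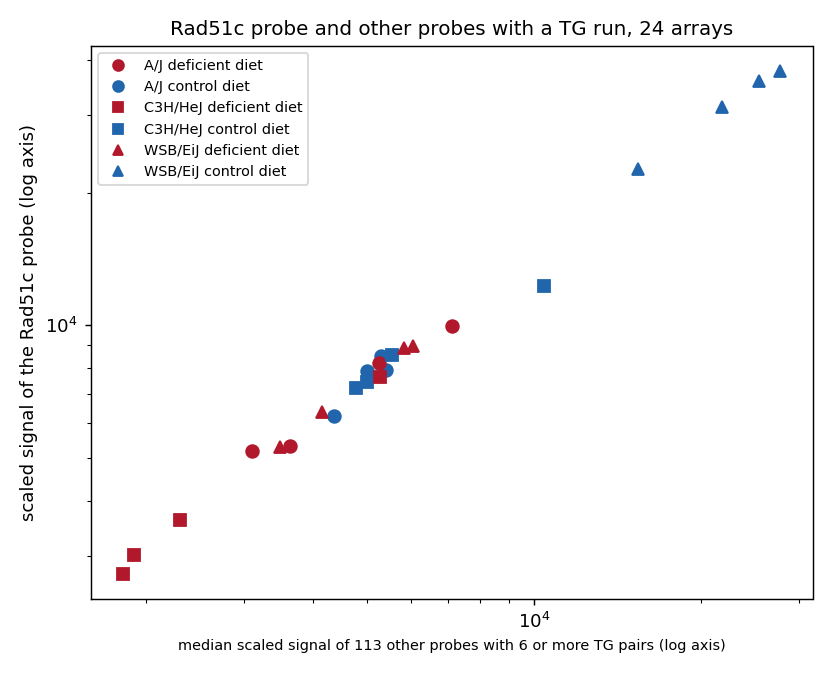
Scaled signal of the Rad51c probe against the median of 113 other probes with 6 or more TG pairs on each of the 24 arrays (both axes log), with a symbol per strain, deficient diet in red and control diet in blue. The points lie close to 1 line (Pearson r = 0.997), with the 4 WSB/EiJ control arrays at the upper end and 3 of the C3H/HeJ deficient arrays at the lower end.

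Xrcc2 and Xrcc3 are the remaining members of the paralog complexes. The tested Xrcc2 probe had group means of 8.81 in A/J and 12.0 in C3H/HeJ livers on the deficient diet, against 9.71 and 11.9 in the same strains on the control diet. Its change was -0.09 in A/J, 0.00 in C3H/HeJ and -0.09 in WSB/EiJ, each ± 0.28 (adjusted p = 0.878, 0.999 and 0.784). The second Xrcc2 probe was above background on 4 of 24 arrays and was not tested. Xrcc3 had 66.9, 70.5, 101 and 110 in C3H/HeJ livers on the deficient diet, against 97 to 144 on the control diet, and these groups overlapped. Its change was -0.46 ± 0.19 in C3H/HeJ (adjusted p = 0.0668), and it passed the threshold with slide as a fixed block (-0.51, adjusted p = 0.0343), without C3H/HeJ deficient 4 (-0.58, adjusted p = 0.0243), deficient 3 (-0.54, adjusted p = 0.0499) or control 3 (-0.54, adjusted p = 0.0482). The Xrcc3 change was 0.34 ± 0.19 in A/J (adjusted p = 0.31) and -0.02 ± 0.19 in WSB/EiJ (adjusted p = 0.93). Over all alternative settings its A/J change ran from 0.07 to 0.69. With spike-in scaling, which moved the median of all probes to 0.56 in WSB/EiJ from -0.35, Xrcc3 stood at 0.89 and Xrcc2 at 0.82 in WSB/EiJ, and Xrcc3 at 0.03 in C3H/HeJ.

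Xrcc3 differed between strains. In control livers it averaged 118 ± 20.7 in C3H/HeJ and 44.9 ± 5.86 in WSB/EiJ, against 41.4 ± 7.97 in A/J (SD, n = 4 each). C3H/HeJ was higher than A/J by 1.52 ± 0.19 (2.86-fold, adjusted p = 6.38e-06), and WSB/EiJ minus C3H/HeJ was -1.39 ± 0.19 (adjusted p = 7.9e-06). Over the 6 tested member probes other than Rad51b on the control diet, 2 were higher and 0 lower in C3H/HeJ than in A/J, with 20.6% of all probes called (11.7% higher, 8.97% lower). In WSB/EiJ 1 was higher and 1 lower than in A/J, with 43.1% of all probes called (25.6% higher, 17.5% lower), and 1 higher and 2 lower than in C3H/HeJ, with 38.2% called (21% higher, 17.2% lower). The higher one is the Rad51c probe with its TG run in both. For the difference of diet effects, over the 6 tested probes of the other genes, 1, Rad51ap1, was higher for C3H/HeJ minus A/J, where 2.03% of all probes were called (1.29% higher, 0.746% lower). Those 573 calls were 2193 without C3H/HeJ deficient 4 (971 higher, 1222 lower) and 322 without C3H/HeJ deficient 2. For WSB/EiJ minus A/J 2 were higher and 1 lower, where 43.6% were called (13.2% higher, 30.4% lower), and without Rad54l and the Rad51c probe 1 of 4, Rad51ap1, was higher and 0 lower, while for WSB/EiJ minus C3H/HeJ 1 was higher, where 21.4% were called (6.99% higher, 14.4% lower).

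Beyond the members, 36 other genes of homologous recombination were listed and 34 were tested, each by its brightest probe, with Dmc1 and Gen1 left below background. In WSB/EiJ 12 rose and 11 fell, where 20.8% of 20699 genes rose and 50.6% fell. In C3H/HeJ 10 rose and 6 fell, where 14.8% of genes rose and 27.1% fell. In A/J 0 rose and 1 fell, where 4.25% of genes rose and 3.55% fell. The median change of the list was -0.12, -0.04 and -0.04 in WSB/EiJ, C3H/HeJ and A/J, beside -0.362, -0.161 and -0.069 over all genes. Above background in all 6 groups were 26 of the 34; the other 8 could pass through the groups where they are high. Of those 26, 7 rose and 11 fell in WSB/EiJ, 5 rose and 6 fell in C3H/HeJ, and 0 rose and 1 fell in A/J. With spike-in scaling the split was 27 higher and 2 lower in WSB/EiJ, 20 and 1 in C3H/HeJ and 10 and 1 in A/J.

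Rbbp8, the CtIP resection factor, rose by 1.33 ± 0.14 in WSB/EiJ (adjusted p = 1.33e-07) and 0.97 ± 0.14 in C3H/HeJ (adjusted p = 4.44e-05). Exo1, a nuclease of long-range resection, rose by 2.98 ± 0.46 in C3H/HeJ (adjusted p = 6.12e-05) and Rad54b, a relative of Rad54l, by 1.80 ± 0.31 (adjusted p = 0.000193). Exo1 was above background on all arrays of only 2 of the 6 groups, and Rad54b of 4. Both could pass the filter through the groups where they are high, and their calls carry that limit. Among the genes that fell, Dna2, the other resection nuclease, was lower by -1.72 ± 0.14 in WSB/EiJ (adjusted p = 2.82e-09). Rmi2, a subunit of the Blm dissolution complex, was the 1 gene of the list called in A/J, at -0.89 ± 0.21 (adjusted p = 0.0114), and it fell by 2.05 in WSB/EiJ (± 0.21, adjusted p = 5.44e-08) and by 1.17 in C3H/HeJ (± 0.21, adjusted p = 0.000238). Top3a, the topoisomerase of that complex, stood at -0.78 ± 0.10 in WSB/EiJ (adjusted p = 8.18e-07). Under percentile scaling the resection genes Exo1, with the limit above, and Dna2 moved in opposite directions in C3H/HeJ, where Dna2 stood at -0.54 ± 0.14 (adjusted p = 0.00457). Spike-in scaling moved the median of all probes from -0.15 to 0.33 in C3H/HeJ and from -0.35 to 0.56 in WSB/EiJ. With it only 1 gene of the list was called lower in C3H/HeJ and 2 in WSB/EiJ. Values of Dna2, Top3a and Rmi2 under spike-in scaling are not given here, so their falls are stated for percentile scaling only.

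**Figure D5:**
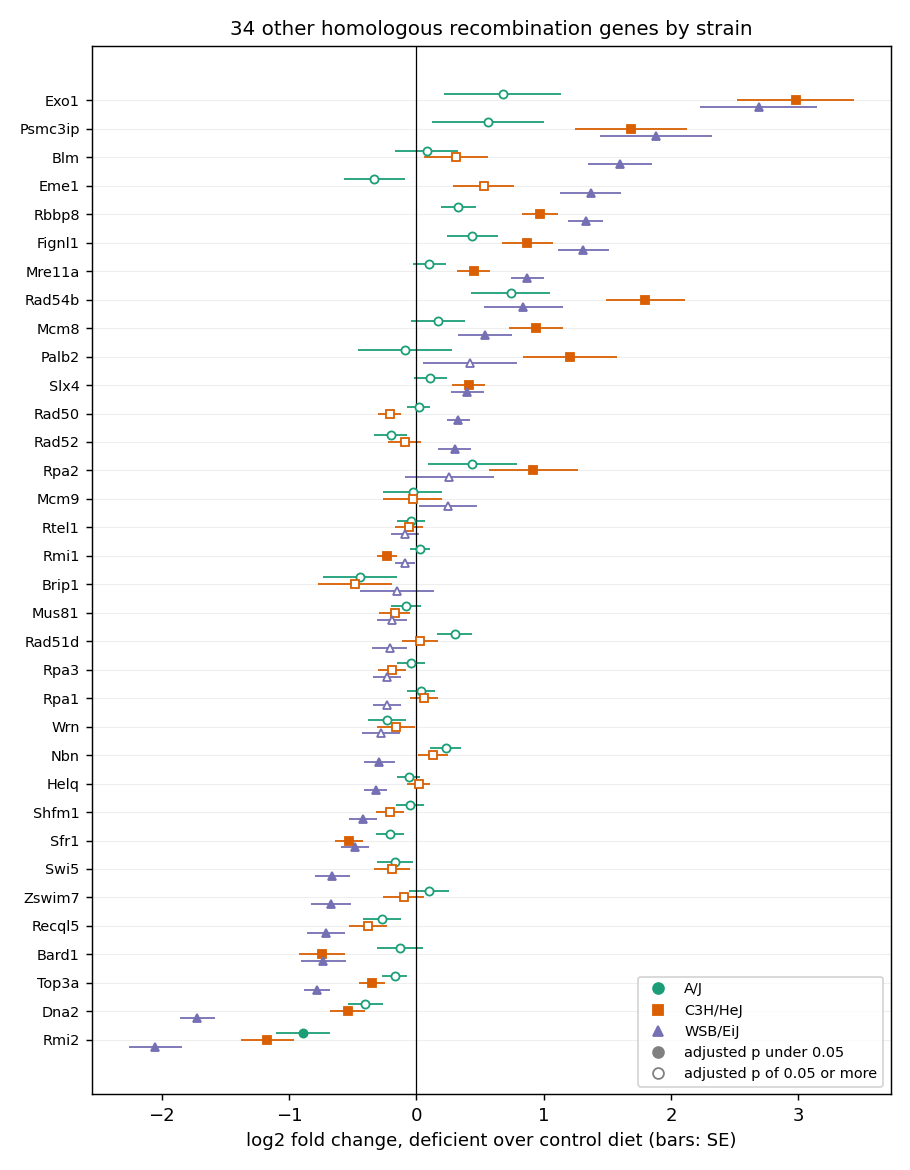
Log2 fold change of the deficient over the control diet (bars: standard error) for the 34 tested genes of homologous recombination outside the members, ordered by the WSB/EiJ value, with a symbol and colour per strain and filled symbols for an adjusted p under 0.05. Exo1 (2.69 in WSB/EiJ, 2.98 in C3H/HeJ) is at the top and Rmi2 (-2.05 in WSB/EiJ, -0.89 in A/J) at the bottom.

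Of 10 tested genes of the Fanconi anaemia pathway, which acts on crosslinked DNA, 2 rose and 4 fell in WSB/EiJ, 2 rose and 2 fell in C3H/HeJ, and none was called in A/J. Over all genes 20.8% rose and 50.6% fell in WSB/EiJ, 14.8% and 27.1% in C3H/HeJ, and 4.25% and 3.55% in A/J. Fanca, a core subunit, rose by 3.40 ± 0.27 in WSB/EiJ (adjusted p = 2.37e-09) and 2.56 ± 0.27 in C3H/HeJ (adjusted p = 1.02e-06). Fanca was above background on all arrays of only 3 of the 6 groups, so it could pass through the groups where it is high. Of the 7 Fanconi genes above background in all 6 groups, 1 rose and 4 fell in WSB/EiJ, and 1 rose and 2 fell in C3H/HeJ. Of 10 genes of end joining, which rejoins breaks without a template, 1 rose and 3 fell in WSB/EiJ and 1, Xrcc6, a Ku subunit, fell in C3H/HeJ (-0.31 ± 0.11, adjusted p = 0.035), with none called in A/J. Of 21 tested replication genes 14 rose in WSB/EiJ, 14 in C3H/HeJ and 5 in A/J, and of 17 tested mitosis genes 17, 17 and 5, with 0 lower in any strain. Above background in all 6 groups were 18 of the replication genes, of which 13, 13 and 4 rose, and 8 of the mitosis genes, of which 8, 8 and 4 rose; the other 9 mitosis genes could pass through the groups where they are high. The median change of the mitosis genes was 4.24 in WSB/EiJ, 2.66 in C3H/HeJ and 0.87 in A/J. Kif20a, a mitotic kinesin, rose by 3.59 ± 0.19 in WSB/EiJ (adjusted p = 1.22e-11).

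Markers of proliferation and of other cells moved with the diet beside Rad51b, Rad51ap1, Rad54l and Brca2. The summed scaled signal of the 17 mitosis genes was 915 to 1470 in A/J, 2250 to 3020 in C3H/HeJ and 5530 to 7140 in WSB/EiJ livers on the deficient diet, against 424 to 1010, 332 to 482 and 331 to 518 on the control diet of these strains. In A/J deficient 4 it was 915, with Rad51b at 394 and the macrophage sum, given next for all groups, at 15600. In A/J control 4 these values were 1010, 45.3 and 10900. Replicate numbers did not pair these samples. For 10 macrophage markers the sum was 13000 to 16600 in A/J, 9510 to 15000 in C3H/HeJ and 18000 to 20900 in WSB/EiJ on the deficient diet, against 8810 to 13100, 5760 to 7150 and 2950 to 3210 on the control diet; 5, 7 and 8 of the 10 rose in these strains. Of 9 markers of stellate cells and fibroblasts 2, 7 and 8 rose in A/J, C3H/HeJ and WSB/EiJ, and of 8 biliary markers 0, 3 and 6. Summed stellate and fibroblast signal was 8500 to 14800 in A/J, 9070 to 23100 in C3H/HeJ and 25300 to 39300 in WSB/EiJ on the deficient diet, against 6080 to 12200, 5220 to 7400 and 6040 to 8820 on the control diet. Summed biliary signal was 701 to 1240, 693 to 3330 and 1480 to 6440 on the deficient diet of these strains, against 498 to 626, 479 to 592 and 501 to 700 on the control diet. Of 9 tested lymphocyte markers 0, 2 and 4 rose and 1, 2 and 3 fell, and of 8 endothelial markers 1, 3 and 2 rose and 0, 0 and 4 fell. Summed lymphocyte signal was 3500 to 5940, 2360 to 4710 and 1850 to 3220 on the deficient diet of these strains. With the control diet it was 4650 to 7290, 5650 to 8770 and 4920 to 7280. Endothelial sums were 7160 to 9660, 5080 to 6770 and 3080 to 4600 on the deficient diet. Their control values were 5950 to 7550, 4400 to 5790 and 4540 to 5380. Above background in all 6 groups were 8 of the macrophage, 8 of the stellate, 5 of the biliary and 5 of the lymphocyte markers. Of these, 3, 5 and 6 macrophage, 1, 6 and 7 stellate and 0, 2 and 4 biliary markers rose in these strains. Among the 5 lymphocyte markers 0, 1 and 1 rose and 1, 2 and 3 fell. The remaining markers of these lists could pass through the groups where they are high. All 10 hepatocyte markers fell in C3H/HeJ and in WSB/EiJ and 2 in A/J, with a summed signal of 375000 to 771000 over the deficient arrays, against 678000 to 957000 over the control arrays. Beside these marker counts, 20.8% of all genes rose and 50.6% fell in WSB/EiJ, 14.8% and 27.1% in C3H/HeJ, and 4.25% and 3.55% in A/J. The part of these markers in the changes of the members was not tested.

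The profile of Rad51b over the 24 arrays was most like those of Enc1 (Pearson r = 0.968), an actin-binding protein, Ccnd1 (0.965), cyclin D1, Ly6d (0.96), Clec7a (0.956), the beta-glucan receptor dectin-1, Gpr137b-ps (0.951), Itgax (0.95), the integrin CD11c of myeloid cells, Airn (0.949) and Cd36 (0.948), a fatty acid transporter, out of 14904 genes with a current name. Itgax was above background on 16 of 24 arrays. The diet separates the arrays into 2 clusters for all of these, so r was also taken within each diet. Within the 12 deficient arrays r was 0.74 for Enc1, 0.80 for Clec7a and 0.86 for Itgax, but 0.19 for Ccnd1 and -0.08 for Cd36. Within the 12 control arrays it was 0.83 for Enc1, 0.80 for Ccnd1 and 0.30 for Cd36. Of the other members, Rad51ap1 had r = 0.82 over all arrays (0.69 within deficient, 0.70 within control arrays), Rad54l 0.79 (0.76 and 0.45) and Brca2 0.56 (-0.03 and -0.42). Xrcc2 had -0.15 (-0.22 and -0.33), Xrcc3 -0.18 (-0.58 and -0.56) and the Rad51c probe, with its TG run, -0.63 (-0.30 and -0.34). Likeness of profile is a description over arrays that share strain and diet.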

How the data were processed

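Liver RNA was labelled with Cy3 and hybridised to Agilent arrays, per the labels' protocols. Agilent Feature Extraction 10.7 (per the submitters' processing notes) gave the deposited intensity values, with background subtracted and spatial trends removed inside each array, per the file headers. The other values used are flags of 0 or 1 per the file headers (well above background, outlier). In the authors' deposited table of normalized intensity, each array is its processed signal times a constant.

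Outlier spots (3332 over all arrays) were left out, spots of a probe averaged, and log2 processed signal reduced by the array's 75th percentile. Control spots were not used. Tests came from limma 3.58.1 (R 4.3.3 and the data.table package, version 1.17.8) with a mean for each group over the 24 arrays, 2-sided, with Benjamini-Hochberg adjustment over 28161 probes at 0.05. Lists use each gene's brightest tested probe, and 5 list names were matched through a RefSeq synonym. The number of arrays limits the precision. The members, lists, motifs and tests were chosen with earlier results of these data known. The fit was tested on simulated data.

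Named genes are all member probes, up to 4 genes of the homologous recombination list and up to 2 of other lists with the lowest adjusted p per strain, the 3 nearest genes on each side of Rad51b, and the 8 most like it. Values of Exo1, Rbbp8, Rmi2, Dna2 and Fanca in further strains belong to genes so named. One gene of the homologous recombination list is not reported here, and its list counts leave it out. Exo1 and Dna2 were set side by side after their values were seen. The alternatives changed the scaling (quantile, median, spike-in probes, the deposited table), the background correction (normexp, offset 50) or filter, the probe taken per gene, the model (slide blocked, replicate number blocked, array weights, a trended prior, compared groups alone), the threshold (0.01) and the arrays (each left out in turn, and both A/J arrays numbered 4). Leaving out probes with a TG run, Rad54l or Rad51b was chosen after seeing the data. Replicate numbers did not pair samples: deviations of same-numbered arrays of the 2 diets correlated between -0.32 and 0.06.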

Additional observations from a re-analysis of the deposited data

Results flagged for a closer look

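In 4 of 42 groups of 4 arrays, 1 array stood apart from the others (Dixon's test at the 95% level, which chance passes in about 1 in 20 groups). For Rad51b, C3H/HeJ deficient 4 had a scaled signal of 394, below the 807 to 854 of its group. For Rad54l, A/J control 4 had 20.2, above 4.79 to 5.31 in the other A/J control arrays. For Brca2, A/J control 4 had 21.3, below 34.6 to 37.3 in those arrays. For Xrcc3, WSB/EiJ control 1 had 36.2, below 47.1 to 48.5 in its group.

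The diet effect differed between strains by limma's test of the difference (4 arrays per group). For Rad51ap1 the difference was 2.02 for C3H/HeJ minus A/J (adjusted p = 0.0101), 3.76 for WSB/EiJ minus A/J (adjusted p = 1.48e-06) and 1.73 for WSB/EiJ minus C3H/HeJ (adjusted p = 0.00473). For Rad54l it was 2.87 for WSB/EiJ minus A/J (adjusted p = 0.00159); its probe was tested only through the deficient groups where it is high, and 2 of 4 WSB/EiJ and 1 of 4 A/J control arrays measured it well above background. For the Rad51c probe it was -1.98 for WSB/EiJ minus A/J (adjusted p = 0.000794), beside a median of -2.08 over 113 other probes with 6 or more TG pairs. Of those 113 probes, 109 were called lower in that difference.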

How the results depend on the processing

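Calls of members by diet in C3H/HeJ and WSB/EiJ kept their count within 1.5 times of 4 under all alternatives but 1, and those in A/J did not. Without the Rad51c and Rad54l probes the count was 2 in both strains, and 1 in place of 3 for the difference WSB/EiJ minus A/J. In A/J the member count, 1, was 0 under normexp correction, without a filter on dim probes, with only the compared groups, at an adjusted p of 0.01 and without both arrays 4, and 2 with spike-in scaling; leaving out 1 array gave 0 to 1. The other homologous recombination genes called in A/J numbered 3 with array weights, 0 with only the compared groups and at 0.01, 11 with spike-in scaling and 2 without both arrays 4, and 1 to 2 with 1 array left out. For the difference C3H/HeJ minus A/J the count of members, 1, was 2 under normexp correction and a trended prior, 0 at 0.01, and 1 to 4 with 1 array left out (4 without C3H/HeJ deficient 4, when Rad54l, Xrcc3 and the Rad51c probe also passed). For WSB/EiJ minus C3H/HeJ it was 2 with array weights, 3 with spike-in scaling and 1 to 2 with 1 array left out. On the control diet, WSB/EiJ minus A/J, Rad51ap1 lost its call under normexp correction and the Rad51c probe kept its own. The cause was not tested.

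Reversed values were near 0 except with spike-in scaling. Xrcc2 by diet turned to 0.07 in WSB/EiJ with median centring, 0.26 in A/J and 0.82 in WSB/EiJ with spike-in scaling. Xrcc3 by diet in WSB/EiJ was 0.14 with median centring, 0.05 and 0.01 with slide as a fixed or random block and 0.89 with spike-in scaling, and in C3H/HeJ 0.03. The Rad51c probe in A/J was 0.22 with spike-in scaling. Differences of diet effects turned for Xrcc2 (WSB/EiJ minus C3H/HeJ, 0.03 with median centring and 0.34 with spike-in scaling; C3H/HeJ minus A/J, -0.08 with array weights) and Xrcc3 (WSB/EiJ minus A/J, 0.20 with spike-in scaling). On the control diet Xrcc2 (WSB/EiJ minus C3H/HeJ, 0.06 with slide as a fixed block and with array weights), Xrcc3 (WSB/EiJ minus A/J, -0.12 with spike-in scaling), Rad51ap1 (WSB/EiJ minus C3H/HeJ, 0.07 with array weights) and Rad54l (WSB/EiJ minus A/J, 0.17 without both A/J arrays 4) turned. With arrays left out, values crossed 0 for the diet change of Rad51ap1 in A/J (-0.01 to 0.69), Xrcc2 in A/J (-0.24 to 0.04) and WSB/EiJ (-0.31 to 0.19) and Xrcc3 in WSB/EiJ (-0.12 to 0.07). Differences of diet effects did so for Xrcc2 (-0.04 to 0.24 for C3H/HeJ minus A/J, -0.31 to 0.19 for WSB/EiJ minus C3H/HeJ), Brca2 (-0.06 to 0.32 for C3H/HeJ minus A/J) and Rad51b (-0.06 to 0.52 for WSB/EiJ minus C3H/HeJ), and control-diet differences for Rad54l (-0.53 to 0.17, WSB/EiJ minus A/J) and Xrcc2 (-0.04 to 0.46 for WSB/EiJ minus A/J, -0.38 to 0.12 for WSB/EiJ minus C3H/HeJ).

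Samples shared only a replicate number. The replicate block left the member counts at 1, 4 and 4 in A/J, C3H/HeJ and WSB/EiJ, changed the call of no member, and moved all calls to 1782, 10720 and 19350 from 2059, 11187 and 19514; no array correlated best with its own number. Only the compared groups gave 961 and 7324 calls in A/J and C3H/HeJ, and no filter on dim probes 1044 in A/J and 32152 in WSB/EiJ. Signal over background limits Rad54l, Xrcc2 and the low end of Rad51b. Rad51ap1 was above background on every array, but its control signals were low too and its changes were smaller under normexp correction.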
